A study of Homo sapiens with 6 samples.

Results

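The genes described here encode PDZK1 and 7 proteins that it works with at the plasma membrane. They were taken by name: PDZK1, PDZK1IP1, SCARB1, SLC22A4, SLC22A5, NHERF1, NHERF2 and EZR, which are 8 of the 20461 Ensembl genes listed. RNA was sequenced from ARPE-19, a line of human cells from the retinal pigment epithelium (RPE). The control group (3 libraries) was transduced with a control lentivirus and the PDZK1 group (3 libraries) with a lentivirus overexpressing PDZK1, both at a multiplicity of infection of 10. Both groups were selected with 4 µg/ml puromycin and then kept in 37.5 mM glucose for 48 h, so every library comes from transduced, selected cells in high glucose. Libraries at another glucose level were not analysed here. The transduced cells were 1 cell line and not primary epithelium, the promoter of the vector is not given in the sources used here, and nothing in the labels says that the replicates were separate cultures, so the spread between libraries may be technical.

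PDZ domains are small folds that hold the last residues of other proteins, and scaffolds with several of them gather transporters and receptors into one place under the membrane. PDZK1, also called NHERF3, is such a scaffold of the NHERF family, best known from the brush border of kidney and intestine and from liver, where it keeps the high-density lipoprotein receptor SCARB1 on the cell surface. NHERF1 and NHERF2 are its relatives, and they also bind ezrin (EZR), which ties membrane complexes to actin filaments and lies in the apical microvilli of the RPE. The typical ligand of these domains ends in serine or threonine, then any residue, then a hydrophobic residue.

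The ends of the coding sequences are shown first, because these codons spell the tail that a PDZ domain can hold. Each line gives the last 30 coding bases of the principal transcript, 5′ to 3′, as read from the GENCODE release 29 transcripts (GRCh38), with the last 3 codons before the stop codon in capitals. All lie within 1 exon.
PDZK1IP1: gaaggcaaggtccgcagcACCCCGATGtaa
SLC22A4: aatcccaaggttctaataACTGCATTCtga
SLC22A5: cccacaatccttaaaagcACAGCCTTCtaa
SCARB1: ggctctgtgctgcaggaaGCAAAACTGtag
PDZK1: tcttccaattctgaagatACAGAGATGtga
NHERF1: aagaaaaacgaactcttcAGCAACCTCtga
NHERF2: aggaagcgtgaaatcttcAGCAACTTCtga
EZR: cagcgcatcgacgagttcGAGGCCCTGtaa
These stretches are chr1:47183971-47184000 (minus strand, exon 4) for PDZK1IP1, chr5:132343806-132343835 (plus, exon 10) for SLC22A4 and chr5:132394243-132394272 (plus, exon 10) for SLC22A5. For SCARB1 the stretch is chr12:124782683-124782712 (minus, exon 12), and for PDZK1 it is chr1:145671436-145671465 (minus, exon 9). NHERF1 ends at chr17:74768627-74768656 (plus, exon 6), NHERF2 at chr16:2037955-2037984 (plus, exon 7) and EZR at chr6:158766914-158766943 (minus, exon 13). PDZK1IP1, both SLC22A transporters and PDZK1 itself have a threonine codon (ACC, ACT or ACA) in the third place from the stop, and NHERF1 and NHERF2 have the serine codon AGC there. SCARB1 has the alanine codon GCA and EZR the glutamate codon GAG at that place. All 8 end in a codon for methionine, phenylalanine or leucine. Of the further coding transcripts of SCARB1 read here, SCARB1-211 ends in the same stretch as the principal one. The others end differently, and of these SCARB1-203 (last codon TCC) and SCARB1-208 (last codon CTT) are not shown. SCARB1-202 uses another last stretch, at chr12:124778467-124778496 in exon 12, and is shown as an example. Its last codon is GCC for alanine.
SCARB1-202: agcggacagccccccagcCCCACAGCCtga

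The groups were compared with edgeR's quasi-likelihood test over 13645 genes, with p-values adjusted over all of them and a threshold of 0.05. Of these genes, 522 passed (3.83%), 193 higher (1.41%) and 329 lower (2.41%) in the PDZK1 group. That total depends on the libraries, and ran from 181 without PDZK1 replicate 1 to 875 without control replicate 3 (268 and 186 when control replicate 1 or 2 was left out, 293 and 206 when PDZK1 replicate 2 or 3 was). The deposited values are read counts per gene, taken here as estimated, with totals of 27970618 to 32804567 per library. Control replicate 3 had the lowest total and stood apart from the other control libraries on the second principal component. Levels are given as CPM and as FPKM. CPM are counts scaled to the size of the library as adjusted by edgeR's TMM factors, and serve to compare groups. FPKM scale by depth and transcript length and serve to compare genes. Errors are SD over n = 3 libraries per group.

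All 8 genes lay above the filter on low counts (0.316 CPM, without the TMM factors) in each of the 6 libraries and were tested. Of the 8, 2 passed the threshold, beside 3.83% of all genes tested. PDZK1, which the virus was made to overexpress, rose and PDZK1IP1 fell. The CPM of the groups did not overlap for these 2 of the 8 genes. That share is close to the 23.9% of all tested genes whose groups did not overlap. The other 6 did not pass, and the 95% interval of each lay inside a 1.5-fold change up or down, with the widest bound at 1.36-fold for NHERF2.

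**Figure D1:**
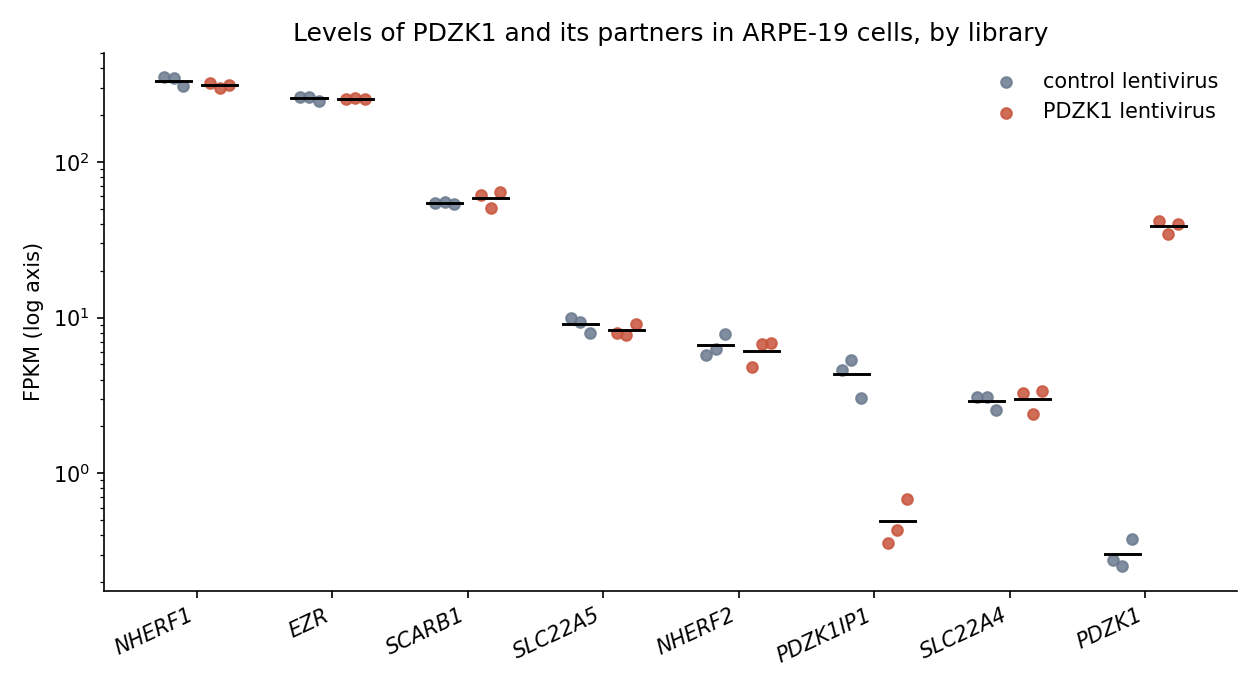
FPKM of each gene (log axis) in every library, with control libraries in grey, PDZK1 libraries in red and black bars for the group means. PDZK1 moved from the lowest level of the 8 in the control group (0.301) to the fourth highest in the PDZK1 group (38.6), PDZK1IP1 went from 4.33 to 0.493, and the points of the other 6 genes overlap between groups.

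PDZK1 (ENSG00000174827, chr1:145670852-145708148, minus strand) was the targeted gene, and its difference checks the labels. Control replicates 1 to 3 held 0.276, 0.252 and 0.376 FPKM of it, PDZK1 replicates 1 to 3 held 41.8, 34.2 and 39.6. Reads assigned to the gene were thus few in every control library, where the counts were 19, 18 and 23, and every PDZK1 library lay far above them. Whether those few reads came from transcripts of the gene itself was not tested. On the log2 scale the change was 7.03 (95% interval 6.74 to 7.32, SE 0.131, adjusted p 8.16e-09), and only 1 gene of the 193 higher ones had a larger change. By mean FPKM PDZK1 was number 12704 of the 20461 genes in the control group and number 1860 in the PDZK1 group. At 38.6 ± 3.89 FPKM it then lay under SCARB1 (58.6 ± 7.46) and above SLC22A5 (8.27 ± 0.772), and well below NHERF1 (311 ± 10.2).

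The length that turns a gene's counts into its FPKM was worked out per library and scaled on 523 genes with 1 annotated transcript, of whose values 71.9% lay within 5% of the library's factor. For PDZK1 it came to 2084 bases in each of the 3 PDZK1 libraries, which is the annotated length of the transcript PDZK1-201 (2084 bases, of which 1560 are coding). In the control libraries it ran from 1962 to 2117 bases, where the counts were few. Counts do not separate reads of the vector from those of the chromosomal gene, and whether the vector's transcript carries the untranslated regions of PDZK1-201 is not given in the sources used here. With only the coding length as divisor, an alternative added after the data had been seen, the level in the PDZK1 libraries was 51.5 ± 5.19. GENCODE lists 1 numbered pseudogene, PDZK1P1, which could share reads.

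**Figure D2:**
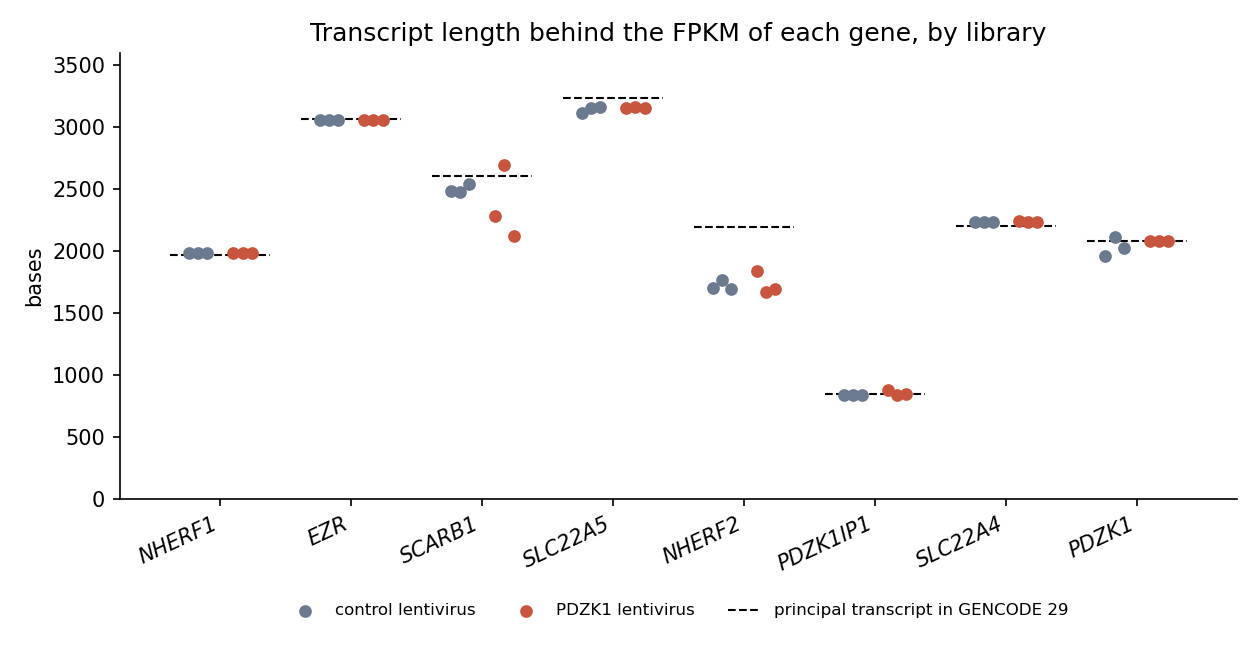
Transcript length in bases behind the FPKM of each gene, 1 point per library (grey, control; red, PDZK1), with the annotated length of the principal transcript as a dashed line. PDZK1 sits on its line at 2084 bases in all 3 PDZK1 libraries, NHERF2 lies below its line, and SCARB1 spreads from 2126 to 2694 bases in the PDZK1 libraries.

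The tested genes on either side of PDZK1 on chromosome 1 did not pass the threshold. FAM72D, NBPF20 and GPR89A on one side had log2 fold changes of -0.43, 0.10 and 0.08, and CD160, RNF115 and POLR3C on the other side had 0.04, 0.15 and 0.04.

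NHERF1 (ENSG00000109062, chr17:74748652-74769353, plus strand) was the most abundant of the 8 genes in both groups. With the control virus its FPKM were 349, 345 and 305, and with the PDZK1 virus 320, 300 and 312, so that control replicate 3 fell among the PDZK1 libraries and the groups overlapped. The log2 fold change was -0.11 (95% interval -0.23 to 0.0093, adjusted p 0.330). Without control replicate 3 it was -0.17 with an adjusted p of 0.0165, which is the 1 alternative of 18 in which NHERF1 passed. An antisense gene, AC016888.1, overlaps NHERF1, and since the strandedness of the counting is not stated, reads of the pair cannot be told apart.

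NHERF2 (ENSG00000065054, chr16:2025356-2039026, plus strand) was the minor relative. Control libraries held 345, 377 and 403 counts of it, PDZK1 libraries 307, 400 and 397, and the ranges overlapped. The difference was -0.13 on the log2 scale (95% interval -0.45 to 0.19, adjusted p 0.718). The length behind its FPKM was 1668 to 1842 bases, nearer to its transcript SLC9A3R2-202 (1564 bases) than to the principal one (2194 bases). NHERF4, the remaining family member, is listed at 0 counts in all 6 libraries, which allows up to 3 counts per library.

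The share of PDZK1 within its own family was larger in every PDZK1 library than in any control library. It made up 0.0777%, 0.0718% and 0.120% of the summed FPKM of PDZK1, NHERF1, NHERF2 and NHERF4 with the control virus, and 11.4%, 10.0% and 11.1% with the PDZK1 virus. The means were 0.0899% ± 0.0263 and 10.8% ± 0.703, a difference of 10.7 percentage points. An exact two-sided permutation test gave p = 0.1, the smallest that 3 libraries against 3 can reach. Since the virus was made to overexpress PDZK1, this outcome was set by the design and says nothing further about the family. Per library there were 811 to 1366 times as many FPKM of NHERF1 as of PDZK1 in the control group, and 7.67 to 8.77 times as many in the PDZK1 group. The ratio of NHERF1 to NHERF2 ran from 38.7 to 60.4 in the control group and from 44.6 to 66.7 in the PDZK1 group, which overlap.

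**Figure D3:**
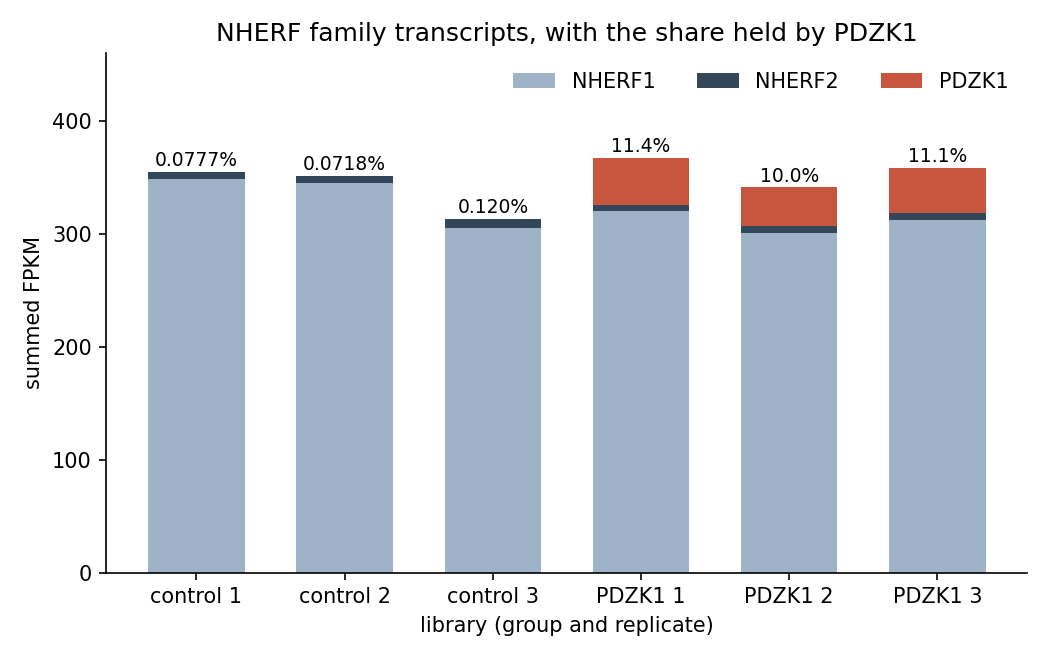
Summed FPKM of the NHERF family in each library, stacked by gene, with the percentage held by PDZK1 above each bar. NHERF1 fills most of every bar, and PDZK1 goes from 0.0718% to 0.120% in the control libraries to 10.0% to 11.4% in the PDZK1 libraries.

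EZR (ENSG00000092820, chr6:158765741-158819412, minus strand), the actin linker, was second in level in both groups. With the control virus its FPKM were 261, 263 and 248, and with the PDZK1 virus 253, 255 and 254, so that the PDZK1 libraries fell inside the control range. The log2 fold change was -0.026 (95% interval -0.11 to 0.058, adjusted p 0.786). An antisense transcript gene, EZR-AS1, overlaps it. NHERF1 ran at 1.23 to 1.34 times the FPKM of EZR in the control group and at 1.18 to 1.26 times in the PDZK1 group. Of the 8 genes in the list of NHERF family members and of ezrin, radixin, moesin and merlin, 7 were tested, PDZK1 was higher and none was lower. Over all genes tested, 3.83% passed the threshold, and PDZK1 was the gene that the virus was made to overexpress. The relatives of ezrin were also abundant, with moesin (MSN) at 148 ± 8.70 and 145 ± 3.89 FPKM and radixin (RDX) at 46.5 ± 2.40 and 45.5 ± 0.839 FPKM in the control and PDZK1 groups.

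PDZK1IP1 (ENSG00000162366, chr1:47183593-47191044, minus strand), also known as MAP17, is a small membrane protein that binds PDZK1 through its tail, and it was the partner that fell. With the control virus its counts were 137, 151 and 77, and with the PDZK1 virus 11, 13 and 20. Every PDZK1 library was below every control library, and the lowest control library was control replicate 3. The level went from 3.97 ± 1.07 CPM to 0.457 ± 0.153 CPM, which is -3.11 on the log2 scale (95% interval -3.84 to -2.39, SE 0.323, adjusted p 0.000895). This was an 8.65-fold lower level (95% interval 5.24 to 14.3), and 20th by size among the 329 lower genes. It passed in 18 of 18 alternatives, with log2 values between -3.41 and -1.82, and -3.31 without control replicate 3. In whole cultures fewer cells with a transcript and less transcript per cell cannot be told apart.

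On the FPKM scale PDZK1IP1 stood above PDZK1 in every control library and below it in every PDZK1 library. The ratio of PDZK1 to PDZK1IP1 was 0.0473 to 0.124 in the control group and 57.8 to 117 in the PDZK1 group. The tested neighbours of PDZK1IP1, looked up after its values were seen, did not pass the threshold. They are MOB3C (0.022), ATPAF1 (-0.15), EFCAB14 (-0.0011), STIL (-0.13), CMPK1 (-0.00025) and FOXD2 (1.13, with 3 to 24 counts per library), given as log2 fold changes.

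SCARB1 (ENSG00000073060, chr12:124776856-124882668, minus strand) takes up cholesterol esters from high-density lipoprotein, and in the RPE it also serves the uptake of carotenoids. Control libraries stood at 146, 149 and 148 CPM, PDZK1 libraries at 151, 147 and 148, and the groups overlapped. The log2 fold change was 0.010 (95% interval -0.060 to 0.081, adjusted p 0.910), and its sign turned without PDZK1 replicate 1 (-0.00081). On the FPKM scale the PDZK1 libraries spread more, with 61.3, 50.2 and 64.4 against 54.1, 55.1 and 53.2 in the control libraries. The length behind those FPKM was 2281, 2694 and 2126 bases in PDZK1 replicates 1 to 3 and 2481 to 2540 bases in the control libraries, so the FPKM of SCARB1 moved with the length assigned to it and not with its counts. The change in counts per FPKM between groups was larger for SCARB1 than for 88.3% of 12250 genes.

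SLC22A5 (ENSG00000197375, chr5:132369752-132395614, plus strand), the carnitine transporter OCTN2, was the more abundant of the SLC22A pair. With the control virus its counts were 1084, 990 and 765, and with the PDZK1 virus 869, 870 and 989, and the groups overlapped also in CPM (27.7 to 33.6 and 26.5 to 31.2). The log2 fold change was -0.14 (95% interval -0.34 to 0.058, adjusted p 0.468). SLC22A4 (ENSG00000197208, chr5:132294443-132344206, plus strand), the ergothioneine transporter OCTN1, lies beside it on the chromosome. With the control virus its counts were 241, 233 and 172, and with the PDZK1 virus 255, 192 and 257. The log2 fold change of SLC22A4 was 0.044 (95% interval -0.30 to 0.39, adjusted p 0.920), and its sign turned without control replicate 3 (-0.039), PDZK1 replicate 1 (-0.020) or PDZK1 replicate 3 (-0.036). SLC22A5 ran at 3.01 to 3.23 times the FPKM of SLC22A4 in the control group and at 2.42 to 3.20 times in the PDZK1 group. P4HA2 overlaps SLC22A4 on the opposite strand, and MIR3936HG overlaps both transporters.

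**Figure D4:**
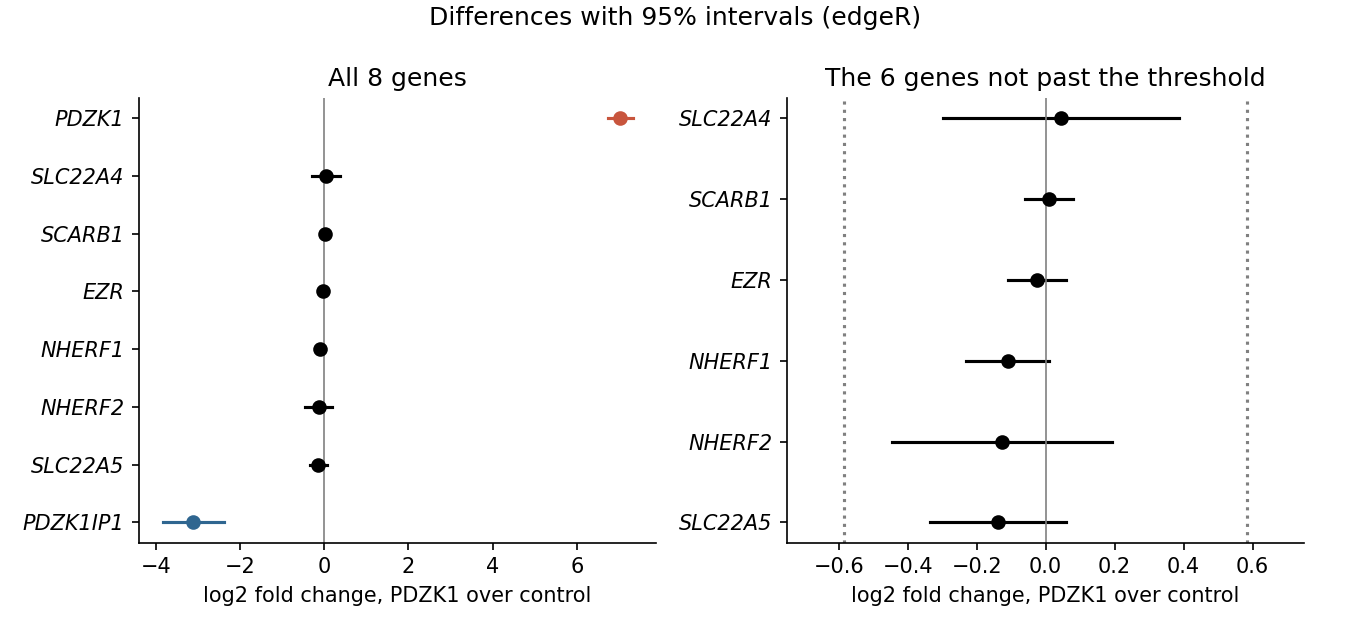
Log2 fold changes of PDZK1 over control libraries with 95% intervals from edgeR, for all 8 genes (left) and on an expanded scale for the 6 that did not pass the threshold (right, dotted lines at a 1.5-fold change). PDZK1 (7.03) and PDZK1IP1 (-3.11) stand away from 0, and the 6 intervals on the right include 0 and lie between the dotted lines.

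In the order of control levels by FPKM, NHERF1 (333 ± 24.0) and EZR (257 ± 8.31) led, followed by SCARB1 (54.1 ± 0.910), SLC22A5 (9.08 ± 0.971), NHERF2 (6.66 ± 1.09), PDZK1IP1 (4.33 ± 1.17), SLC22A4 (2.90 ± 0.304) and PDZK1 (0.301 ± 0.0659). PDZK1IP1 and SLC22A4 were the only neighbours in that order whose libraries overlapped. In the PDZK1 group the order was NHERF1, EZR, SCARB1, PDZK1, SLC22A5, NHERF2, SLC22A4 (3.01 ± 0.525) and PDZK1IP1 (0.493 ± 0.171), and no neighbours overlapped. Apart from PDZK1 and PDZK1IP1, the genes kept their relative order.

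Other proteins that bind PDZK1 or the NHERF scaffolds were looked at as lists. Of 18 transporters and channels, 10 were tested, 1 was higher and 2 were lower, beside 3.83% of all genes past the threshold. SLC17A1, SLC22A11, SLC22A12, SLC26A3 and SLC34A1, transporters of kidney and gut, are listed at 0 counts in all libraries, and CFTR had 0 to 2 counts. The median log2 fold change of the 10 was 0.065, against -0.00025 over all genes tested, but it was -0.025 with limma on log2(FPKM + 1). SLCO1A2, an uptake transporter for bile salts and hormones, fell from counts of 489, 557 and 451 to 254, 185 and 204, a log2 fold change of -1.31 (95% interval -1.61 to -1.01, adjusted p 0.000895). No PDZK1 library reached the control libraries, and SLCO1A2 passed in 18 of 18 alternatives.

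Smaller differences were found for ABCG2 and SLC4A7. ABCG2, an efflux pump, had counts of 298, 316 and 344 with the control virus and 488, 561 and 507 with the PDZK1 virus (log2 fold change 0.60, adjusted p 0.0236). SLC4A7, a sodium bicarbonate cotransporter, had 2487, 2536 and 2188 against 2236, 2208 and 2139 (log2 fold change -0.22, adjusted p 0.0266). Neither call was stable. With 1 library left out, ABCG2 passed in 1 of 6 fits (without control replicate 3), and SLC4A7 in 2 of 6 (without control replicate 1 or 3). With limma on log2(FPKM + 1), SLC4A7 came to -0.084 with an adjusted p of 0.680, and ABCG2 to 0.49 with 0.0447, or 0.0678 with no filter. The 3 most abundant of this list by FPKM were CLCN3, a chloride-proton exchanger (27.1 ± 0.866 and 29.1 ± 0.839), SLC4A7 (10.9 ± 0.299 and 10.3 ± 1.21) and the sodium-proton exchanger SLC9A3 (10.5 ± 0.582 and 9.83 ± 0.934).

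Of 13 receptors and signalling proteins of the same kind, 10 were tested, 1 was higher and 1, PDZK1IP1, was lower. This stood beside 3.83% of all genes tested past the threshold, and the median of the list was 0.033. The higher one was PODXL, a sialomucin that binds the NHERF proteins and ezrin, with counts of 3525, 3144 and 2562 with the control virus and 3891, 4202 and 3803 with the PDZK1 virus (log2 fold change 0.28, adjusted p 0.0298). PODXL passed in 2 of 6 fits with a library left out (without control replicate 1 or 3), and its adjusted p was 0.0975 with limma on log2(FPKM + 1). The most abundant were SCARB1, PODXL (16.1 ± 1.34 and 19.95 ± 0.807 FPKM) and the growth factor receptor PDGFRB (11.5 ± 1.03 and 13.2 ± 0.710 FPKM). PTGIR and SSTR5 are listed at 0 counts throughout.

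**Figure D5:**
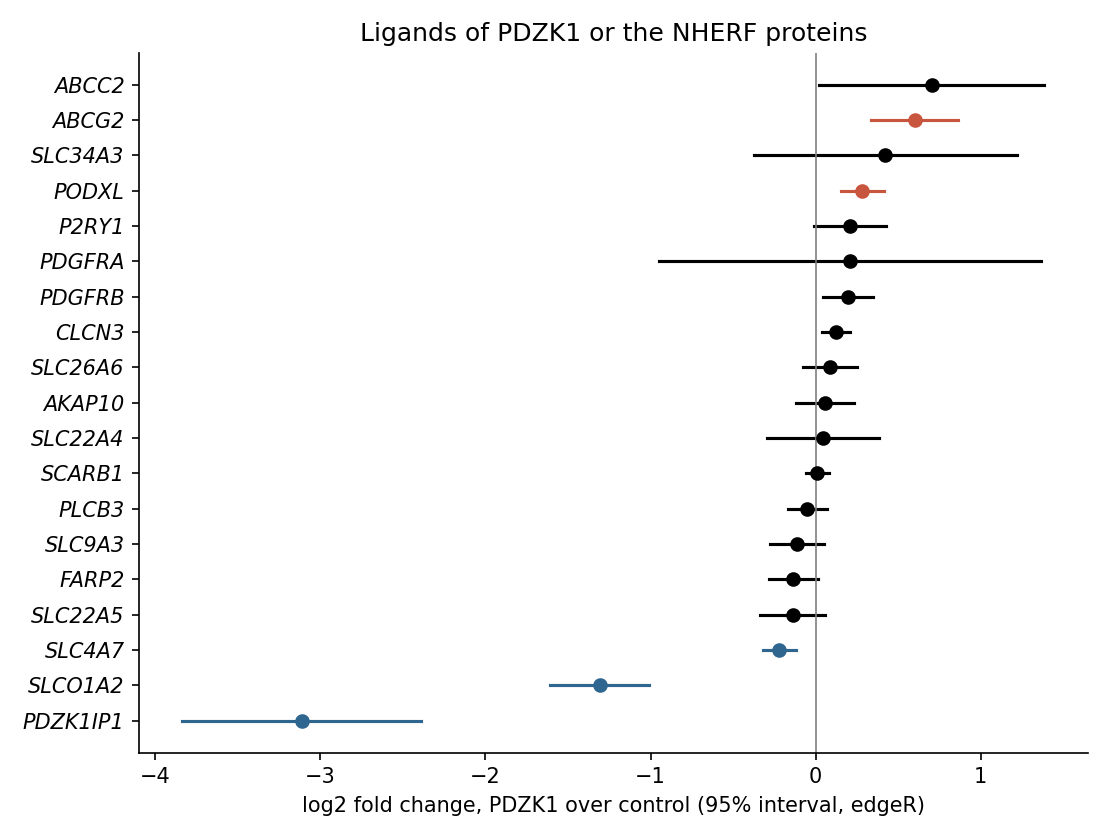
Log2 fold changes with 95% intervals (edgeR) of tested transporters, channels, receptors and signalling proteins that bind PDZK1 or the NHERF proteins, with genes past the threshold in red (higher) or blue (lower). Among the genes past the threshold, PDZK1IP1 (-3.11) and SLCO1A2 (-1.31) stand lowest, and ABCG2 (0.60) and PODXL (0.28) are the higher ones.

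The taurine transporter SLC6A6 and the folate transporter SLC19A1 had log2 fold changes of -0.034 and -0.035 (adjusted p 0.862 and 0.886). SLC6A6 stood at 6.03 ± 0.463 and 6.06 ± 0.426 FPKM and SLC19A1 at 2.91 ± 0.340 and 2.93 ± 0.129 FPKM.

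Genes that act beside SCARB1 in lipoprotein and cholesterol handling mostly did not pass. Of 17 listed, 14 were tested and, beside 3.83% of all genes tested past the threshold, 1 was higher (median -0.025). That was LRP1, an endocytic lipoprotein receptor, with a log2 fold change of 0.16 (80.5 ± 2.47 and 90.8 ± 1.14 FPKM, adjusted p 0.0496), which passed in 1 of 6 fits with a library left out (without control replicate 3) and had an adjusted p of 0.0860 with limma on log2(FPKM + 1). The most abundant were the lysosomal cholesterol carriers NPC2 (433 ± 11.1 and 447 ± 17.6 FPKM) and NPC1 (103 ± 1.95 and 99.8 ± 0.864 FPKM) and the SCARB1 relative SCARB2 (109 ± 4.18 and 108 ± 8.59 FPKM). The ligand gene APOA1 is listed at 0 counts in all libraries.

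Genes that act beside SLC22A5 in carnitine supply and the carnitine shuttle numbered 13, of which 11 were tested and 1 was lower (median -0.011). Over all genes tested, 3.83% passed the threshold. CPT2, the inner membrane carnitine palmitoyltransferase, had a log2 fold change of -0.23 (14.6 ± 0.642 and 12.5 ± 0.347 FPKM, adjusted p 0.0494), and it passed in 0 of 6 fits with a library left out and in 3 of 12 other alternatives. ALDH9A1, an enzyme of carnitine synthesis (76.5 ± 2.59 and 71.8 ± 1.96 FPKM), and carnitine acetyltransferase CRAT (19.1 ± 0.638 and 18.3 ± 1.64 FPKM) were the most abundant with CPT2. BBOX1, the last enzyme of carnitine synthesis, is listed at 0 counts in all libraries.

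Of 35 other PDZ scaffolds, 34 were tested, 1 was higher and 1 was lower, with a median of 0.020, beside 3.83% past the threshold among all genes tested. The number past it was 5 with DESeq2, 4 without control replicate 3, and 0 with limma on FPKM or with any of the other 5 libraries left out. DLG3, a membrane-associated guanylate kinase, had a log2 fold change of 0.30 (adjusted p 0.0425), and afadin (AFDN), a scaffold of adherens junctions, -0.17 (adjusted p 0.0150). With a library left out DLG3 passed in 0 of 6 fits and AFDN in 1 of 6 (without control replicate 3). With limma on log2(FPKM + 1), AFDN came to -0.083 (adjusted p 0.827) and DLG3 to 0.23 (adjusted p 0.167). The most abundant were SDCBP (241 ± 11.8 and 218 ± 1.29 FPKM), GIPC1 (156 ± 2.05 and 145 ± 11.5 FPKM) and DLG1 (106 ± 6.95 and 94.4 ± 1.73 FPKM).

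The labelled cell type was checked on 16 RPE markers. The keratins KRT8 and KRT18 and the transcription factors OTX2 and MITF were present (577 ± 41.7, 506 ± 47.4, 23.5 ± 3.35 and 8.30 ± 0.679 FPKM in the control group). By contrast, RPE65 and TTR were at 0 counts in all libraries, TYR at 0 to 2 and DCT at 0 to 4. With edgeR 0 of the 12 tested passed the threshold and 1, LRAT, had an unadjusted p under 0.05. DESeq2 called 0 of 13. BEST1 stood at 11459 counts in PDZK1 replicate 1 and at 124 to 181 in the other libraries. Among 10 endothelial, immune and photoreceptor markers, PTPRC and CDH5 were at 0 counts, and 0 of the 4 tested passed with edgeR (0 of 7 with DESeq2), although 2, KDR and CD68, had an unadjusted p under 0.05 and CD68 passed without control replicate 1. The summed level of the 10 was 78.6 to 92.6 FPKM in the control group and 72.7 to 75.9 in the PDZK1 group, nearly all of it from CD68, and its part in the results above was not tested.

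The genes whose log2 CPM followed PDZK1 most closely over the 6 libraries were TNS2 (Pearson r 0.9995), EDIL3 (0.997), HSP90AA1 (0.995), MLPH (0.995) and DMPK (0.995). The libraries form the groups, so r mainly describes the step between them and is given with no test. EDIL3, a secreted integrin ligand, had a log2 fold change of 0.90 (17.1 ± 0.252 and 31.9 ± 0.867 CPM), MLPH, a melanosome transport adaptor, 0.85 (24.5 ± 0.723 and 44.2 ± 0.940 CPM), and the kinase DMPK 0.43 (51.5 ± 0.656 and 69.4 ± 0.476 CPM). TNS2 (0.26, adjusted p 0.203) and the chaperone HSP90AA1 (0.13, adjusted p 0.0829) did not pass. Among the 8 genes described here, PDZK1IP1 had an r of -0.98 with PDZK1, and the others lay between -0.66 (NHERF1) and 0.33 (SCARB1).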

How the data were processed

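RNA was extracted with Trizol from 6 samples, 3 per group, and libraries were made with a VAHTS Universal V6 kit. The submitters' processing notes name fastp 0.20.1, HISAT2 2.2.1 and GRCh38. The counting program, its annotation and its strandedness are not given in the sources used here. The authors deposited counts per gene as whole numbers, read here as estimated counts, and FPKM, which scale by transcript length and depth. Each table lists 21314 entries, of which 853 are assembled loci without an Ensembl identifier and did not enter the main test. A further 3 columns of per-sample values in each of them match none of the samples and were not used.

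Genes passing filterByExpr were compared in edgeR 4.0.16 (R 4.3.3, TMM, robust quasi-likelihood, no covariates, two-sided), with Benjamini-Hochberg adjustment over 13645 genes and a threshold of 0.05. The biological coefficient of variation was 0.0995. Alternatives were DESeq2 1.42.0, limma 3.58.1 on log2(FPKM + 1) and log2(FPKM + 0.1) at a mean FPKM of at least 0.5 or with no filter, other scalings and count filters (at least 1 count, or 10 in every library), a non-robust fit, PDZK1 left out, a replicate block, each library left out, and, added after seeing the data, assembled loci kept and PDZK1 per coding length. Counts of 0 are read as up to 3 counts at 95% confidence, which covers counting error only, since reads carry no molecular identifiers.

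Positions are those of GENCODE release 29 on GRCh38, 1-based, and promoter windows are from RefSeq (GRCh38.p14). The members and the lists were chosen with earlier results of these data known. Named genes are the 8 members, the genes of each list past the threshold and its 3 most abundant by FPKM, the 3 tested neighbours of PDZK1 on each side and the 5 genes most like PDZK1 by Pearson r. Others were named after their values were seen (genes at or near 0 counts, MSN, RDX, MITF, BEST1, LRAT, KDR, the overlapping genes and the neighbours of PDZK1IP1). Some genes of the lists enter the counts and medians but are not reported here.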

Additional observations from a re-analysis of the deposited data

How the results depend on the processing

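PDZK1 kept its call in 17 of 17 alternatives (4.92 to 7.21 on the log2 scale, the lowest with limma on log2(FPKM + 1)) and PDZK1IP1 in 18 of 18 (largest adjusted p 0.0186). EZR, NHERF2 and SLC22A5 kept their sign and stayed short of the threshold in 18 of 18. With a library left out, NHERF1 ran from -0.17 (adjusted p 0.0165, past the threshold, without control replicate 3) to -0.077, SCARB1 from -0.00081 to 0.021 and SLC22A4 from -0.039 to 0.18, with values of -0.020 and -0.036 when PDZK1 replicate 1 or 3 was left out. The genes past the threshold numbered 806 with DESeq2, 191, 187 and 184 with limma on FPKM (pseudocount 1, pseudocount 0.1, and 1 with no filter), and 181 to 875 with a library left out. Deviations of same-numbered libraries correlated at -0.046, -0.056 and -0.14. Differently numbered libraries were not compared, so these values cannot settle whether the replicate numbers pair the libraries. A replicate block gave 163 genes and changed no call of the 8 genes, while ABCG2, SLC4A7, PODXL, LRP1, CPT2, DLG3 and AFDN had adjusted p-values of 0.0599 to 0.188 with it. The difference in the share of PDZK1 in its family was 13.9 points with PDZK1 per coding length. List medians that moved by more than the spread between libraries were those of the transporter ligands (-0.025 and -0.024 with limma on FPKM, pseudocounts 1 and 0.1), the receptor ligands (0.010 with at least 10 counts in every library, -0.018 to 0.056 with a library left out), lipoprotein handling (-0.091 to 0.010 with a library left out) and carnitine supply (0.043 with limma and a pseudocount of 0.1). The cause of these changes was not tested. Low counts limit PDZK1 in the control group (18 to 23 counts) and PDZK1IP1 in the PDZK1 group (11 to 20 counts).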

Other observations

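CpG content differed between the promoters of the genes. In the RefSeq window from 250 bases before to 50 bases after the start, which is listed for 7 of the 8 genes, the letters CG occurred 4 times for PDZK1 and 8 times for PDZK1IP1, against a median of 14 over 35116 promoters. They occurred 29 times for SLC22A4, 36 times for SLC22A5 and for EZR, 39 times for NHERF2 and 42 times for NHERF1. Of all these promoters, 24.5% had fewer than PDZK1 and 39.3% fewer than PDZK1IP1. Any link between CpG content and the changes in level was not tested, and PDZK1 was the gene that the virus was made to overexpress. PDZK1 has 2 listed windows, of which the first was used.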
